A study of Mus musculus with 6 samples.

Results

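The genes described here make, store, recycle and break down acetylcholine, or encode the neuronal nicotinic receptor subunits that it opens. The 10 genes were chosen by name, with earlier results of these data known: the synthetic enzyme Chat, the transporters Slc18a3 and Slc5a7, the cholinesterases Ache and Bche, and the receptor subunits Chrna3, Chrna5, Chrna7, Chrnb2 and Chrnb4. Each had at least 1 probe set annotated to it alone, 19 probe sets of the 45037 tested on the array, which stand for 10 of 18193 named genes. RNA came from untreated adult C57/BL6 mice and was measured on 3 arrays of carotid body and 3 of adrenal medulla. Each array held a pool from 10 mice, of either 18 carotid bodies or 10 adrenal medullas. Pools that share a number, here called cohorts 1, 2 and 3, came from a single cohort according to the submitters, so a carotid body array and an adrenal medulla array of each cohort form a pair. The sex of the mice was not among the labels used here. The comparison sets the chemoreceptor organ of the carotid artery, whose glomus cells respond to low oxygen, against the catecholamine-secreting core of the adrenal gland. Both labels name whole organs and not sorted cells.

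Acetylcholine is made from choline and acetyl-CoA by choline acetyltransferase, packed into vesicles by the transporter that Slc18a3 encodes, and split in the synaptic cleft by acetylcholinesterase. The freed choline returns to the nerve terminal through the high-affinity transporter encoded by Slc5a7. In the adrenal medulla, acetylcholine released by preganglionic nerve endings opens nicotinic receptors on chromaffin cells and triggers the release of catecholamines; the cell bodies of those nerves, where their messenger RNA is made, lie in the spinal cord. In the carotid body, acetylcholine has long been studied as a transmitter between glomus cells and the sensory endings that contact them. Neuronal nicotinic receptors are pentamers of alpha and beta subunits or, for the alpha7 subunit, of a single kind of subunit.

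Values were log2 probe set intensities, with no detection calls. Arrays of one tissue correlated at 0.978 or more over all probe sets and arrays of different tissues at 0.951 or less. The pools were mixed. A gene was called where limma's adjusted p was under 0.05 and the difference 2-fold or more. Of 11 measured chromaffin and glomus cell markers, 7 were called toward adrenal medulla and 0 toward carotid body, and the differences ran from -3.41 for Dbh to 0.81 for Ddc. Of 13 glial markers 7, and of 14 fibroblast and matrix markers 14, were called toward carotid body, and 0 of either list toward adrenal medulla. Ganglion neuron markers were mostly not called, 15 of 17, with Gap43 (5.27) called toward carotid body and Rbfox3 (-2.85) toward adrenal medulla. Of 11 adrenal cortex markers, 9 were called toward adrenal medulla, and their summed log2 level was 15.9 to 16.3 there, 14.5 in the carotid body array of cohort 1 and 9.64 and 9.46 in the others. For the Gapdh control, the log2 excess of its 3' over its 5' probe set, which grows with RNA degradation, was 0.59 to 1.45 in carotid body, against 0.13 to 0.61 in adrenal medulla. Xist, which is transcribed from an inactive X chromosome, was at 8.84 to 10.96 in carotid body, against 4.45 to 5.60 in adrenal medulla. Xist therefore differed between the paired arrays of every cohort, which the stated sharing of animals does not account for; results with and without the pairing are given where they differ. The part of cell composition, RNA quality and the sex of the pooled animals in the results below was not tested. In pooled organs, fewer cells of a type and less RNA per cell cannot be told apart.

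The receptor subunit gene Chrnb4 was the only 1 of the 10 genes that passed the test, and it was lower in carotid body. The p-values were adjusted over all probe sets. Of all 18193 genes, each represented by its brightest probe set, 12.0% were called (5.91% with carotid body higher, 6.08% with adrenal medulla higher), so 1 of 10 is near the background. By probe set, 1 of 19 was called, with adrenal medulla higher, against 10.5% of all probe sets (5.95% and 4.58% in the respective directions). At an adjusted p under 0.05 without regard to size, carotid body was higher for Bche and Chrna7, adrenal medulla for Chrna5 and Chrnb4, 4 of 10 genes against 27.4% of all genes (10.9% and 16.5% by direction), and 5 of 19 probe sets against 23.9%. The median difference over the 10 genes, carotid body minus adrenal medulla, was -0.19 (log2), against -0.04 over all genes. The 2 tissues' values did not overlap for 6 of the 10 genes, against 43.9% of all genes, and for 10 of the 19 probe sets, against 40.2% of all.

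**Figure D1:**
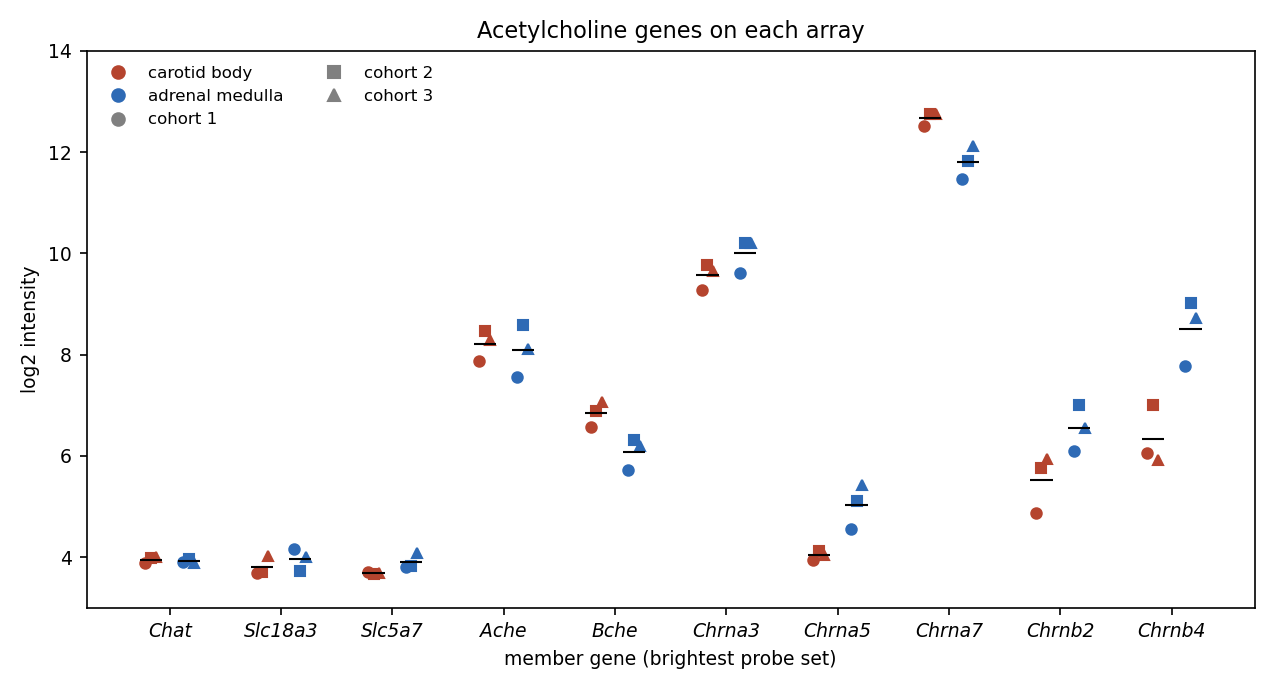
Log2 intensity (vertical axis) of the brightest probe set of each of the 10 genes on every array. Red symbols are the 3 carotid body arrays, blue symbols the 3 adrenal medulla arrays, symbol shapes the cohorts and short black lines the tissue means; Chrnb4 lies between 5.93 and 7.0 in carotid body and between 7.77 and 9.03 in adrenal medulla. Heights of different genes are not comparable, since each probe set has its own brightness.

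Genes for the synthesis, vesicle loading and recapture of acetylcholine were at the dim end of the array in both tissues. Chat, the synthetic enzyme, was 3.88, 3.98 and 3.99 in carotid body, against 3.91, 3.96 and 3.89 in adrenal medulla for cohorts 1, 2 and 3. These 6 values overlapped between tissues, and the difference was 0.03 (log2; 95% confidence interval -0.21 to 0.28; limma adjusted p = 0.865). Slc18a3, whose RefSeq gene lies inside that of Chat, was 3.69, 3.70 and 4.02 in carotid body, against 4.16, 3.74 and 4.01 in adrenal medulla. Its values also overlapped, with a difference of -0.16 (95% confidence interval -0.52 to 0.20; adjusted p = 0.522). Slc5a7, the choline transporter of cholinergic terminals, was 3.72, 3.67 and 3.68 in carotid body, against 3.81, 3.82 and 4.08 in adrenal medulla. It was lower in all 3 carotid body arrays than in any adrenal medulla array, with a mean difference of -0.22 (95% confidence interval -0.50 to 0.06; adjusted p = 0.248), which is not a difference beyond the spread by the test. All 3 probe sets had mean levels below the 25th percentile of the array, at 23.4, 21.9 and 19.1. With no detection calls, such levels cannot be told from those of a gene that is not expressed, and differences at this end of the scale are compressed. The 3 intervals leave out a difference of 2-fold on this compressed scale.

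Of the cholinesterases, Bche but not Ache had a limma adjusted p under 0.05, and neither was called. Ache, which encodes the acetylcholinesterase of synapses and red cells, was 7.87, 8.47 and 8.30 in carotid body, against 7.55, 8.58 and 8.11 in adrenal medulla. In both tissues the array of cohort 1 was lowest and that of cohort 2 highest, and the tissues overlapped. The difference was 0.13 ± 0.27 (log2, SE; n = 3 arrays a tissue; limma adjusted p = 0.782), with a 95% confidence interval of -0.50 to 0.76. Without the adrenal medulla array of cohort 1 it was -0.13. Bche encodes butyrylcholinesterase, the broader esterase that glia and liver make. Its brightest probe set (1436098_at) was 6.57, 6.89 and 7.07 in carotid body, against 5.71, 6.31 and 6.20 in adrenal medulla. Every carotid body value lay above every adrenal medulla value, and the carotid body array was higher in all 3 cohorts. The difference was 0.77 ± 0.20 (SE; adjusted p = 0.0263), 1.71-fold and so under the 2-fold bound. That adjusted p rose above 0.05, to 0.0542, with arrays centred on their medians, and single omitted arrays gave 0.0201 to 0.083, and omission of cohort 2 gave 0.133. The other probe sets of Bche were dim: 1421218_at differed by 0.36 (adjusted p = 0.237) and 1437863_at by -0.01 (adjusted p = 0.951). The mean of its 3 probe sets differed by 0.37. The glial marker list had a summed log2 level of 14.1 to 14.3 in carotid body, against 12.6 to 12.8 in adrenal medulla; its part in the Bche difference was not tested. The log2 difference Bche minus Ache within an array was -1.37 ± 0.19 in carotid body and -2.01 ± 0.23 in adrenal medulla (mean ± SD, n = 3), so the tissue difference of Bche exceeded that of Ache by 0.64. A two-sided exact permutation test gave p = 0.1 for this shift, the smallest that 3 arrays against 3 allow, and 0.12 adjusted over the 6 contrasts computed between members.

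The genes of 3 subunits lie next to each other on chromosome 9, in the order Chrna5, Chrna3 and Chrnb4, with no other gene between them in RefSeq (GRCm38.p6). Chrna5 and Chrna3 are on opposite strands and their annotated ends overlap. Their products, alpha3, beta4 and the accessory subunit alpha5, assemble into the receptor type that dominates in autonomic ganglia and chromaffin cells. The bases before their start sites are shown because all 3 neighbours had lower mean levels in carotid body. The windows are from RefSeq (GRCm38.p6), 250 bases upstream of the start site on the gene's own strand, 5′ to 3′. They cover chr9:54980630-54980879 and chr9:54981238-54981487 (plus strand, the listed starts of Chrna5), chr9:55026563-55026812 (minus strand, Chrna3) and chr9:55048545-55048794 (minus strand, Chrnb4). The second window of Chrna5 and that of Chrnb4 lie within the full annotated extent of their genes, since RefSeq lists more than a single start. The last bases of the first Chrna5 window also lie in that extent, which begins at 54980827. Capitals mark matches on either strand to the GC box GGGCGG or the E-box CAGCTG; the homeodomain core TAATTA was searched too, and no 2 matches overlapped.
Chrna5, first start: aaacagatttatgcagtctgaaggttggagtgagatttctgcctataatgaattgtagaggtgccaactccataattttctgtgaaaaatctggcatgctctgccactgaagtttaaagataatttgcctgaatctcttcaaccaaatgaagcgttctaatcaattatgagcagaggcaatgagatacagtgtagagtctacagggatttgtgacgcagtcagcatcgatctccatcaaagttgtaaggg
Chrna5, second start: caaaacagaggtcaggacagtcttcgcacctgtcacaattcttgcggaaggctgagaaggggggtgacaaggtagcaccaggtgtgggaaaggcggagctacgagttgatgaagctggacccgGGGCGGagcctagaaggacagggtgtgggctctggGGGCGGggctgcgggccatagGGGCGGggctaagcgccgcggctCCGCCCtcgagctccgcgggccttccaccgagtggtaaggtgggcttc
Chrna3: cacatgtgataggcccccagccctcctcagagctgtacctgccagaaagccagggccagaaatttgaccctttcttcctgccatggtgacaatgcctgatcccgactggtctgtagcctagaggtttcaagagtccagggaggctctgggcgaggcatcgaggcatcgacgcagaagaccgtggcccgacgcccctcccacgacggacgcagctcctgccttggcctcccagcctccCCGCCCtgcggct
Chrnb4: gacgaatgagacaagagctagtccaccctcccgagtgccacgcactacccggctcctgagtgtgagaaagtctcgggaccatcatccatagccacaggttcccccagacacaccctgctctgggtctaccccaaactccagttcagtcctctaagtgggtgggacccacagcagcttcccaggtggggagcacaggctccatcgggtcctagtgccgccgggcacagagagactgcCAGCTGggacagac

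The second Chrna5 window held 4 GC boxes, the Chrna3 window 1 and the Chrnb4 window 0. The Chrnb4 window held 1 E-box, which the windows of Chrna3 and Chrna5 did not. Of 32851 windows of this length before listed mouse start sites, 32.7% held a GC box, 13.0% the E-box and 4.8% the homeodomain core, which none of the 4 windows held. GC content was 40.0% and 65.2% in the Chrna5 windows, 63.2% for Chrna3 and 61.2% for Chrnb4, with a median of 52.4% over all windows. These matches are a description of letters and were not set against the measurements.

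Chrnb4, the beta4 subunit, had the largest tissue difference of the 10 genes. Its brighter probe set (1457008_at) was 6.05, 7.0 and 5.93 in carotid body, against 7.77, 9.03 and 8.72 in adrenal medulla. The highest carotid body array, of cohort 2, lay below the lowest adrenal medulla array. The means were 6.33 ± 0.59 and 8.51 ± 0.66 (mean ± SD, n = 3), a difference of -2.18 ± 0.38 (log2, SE; limma adjusted p = 0.00596), or 4.53-fold. The dimmer probe set (1425849_at) was 4.25, 4.33 and 4.19 in carotid body, against 4.83, 5.25 and 4.93 in adrenal medulla. It also separated the tissues, by -0.75 ± 0.14 (adjusted p = 0.00742), under 2-fold. The gene kept its call under the 16 alternatives fitted with limma, with differences of -2.55 to -1.46, the smallest from the mean of both probe sets. Relative to chromaffin and glomus cell markers, described further on, it differed by -0.92, under 2-fold and with overlapping tissues (exact permutation p = 0.2; 0.28 adjusted). Without the carotid body array of cohort 1 the difference was -2.04. All adrenal medulla arrays had higher cortex marker levels than that array, so this omission does not address cortex RNA, whose part was not tested.

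Chrna5, the accessory subunit, was 3.95, 4.12 and 4.05 in carotid body, against 4.55, 5.11 and 5.43 in adrenal medulla on its brighter probe set (1427401_at). The 3 carotid body values lay close together, at a level under the median of all probe sets, and all adrenal medulla values lay above them. The carotid body values were near the 25th percentile of probe set means, 3.99, where differences are compressed. With no detection calls, they cannot be told from those of a gene that is not expressed. The difference was -0.99 ± 0.21 (log2, SE; limma adjusted p = 0.0138), a 1.99-fold difference just inside the 2-fold bound, so the gene was not called. With arrays centred on their medians it was -1.11 (adjusted p = 0.00926), and with quantile normalization -1.08 (adjusted p = 0.0116), both past the bound; it also passed without the carotid body array of cohort 2 (-1.03) and without the adrenal medulla array of cohort 1 (-1.23). The other probe set (1442035_at) was dimmer and differed by -0.10 (adjusted p = 0.666), and the mean of both by -0.54.

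Chrna3, the alpha3 subunit, was measured by a pair of bright probe sets and a dim one. The brightest (1455931_at) was 9.28, 9.78 and 9.65 in carotid body, against 9.62, 10.20 and 10.21 in adrenal medulla. Here the tissues overlapped, because the adrenal medulla array of cohort 1 lay inside the carotid body range, yet the carotid body array was the lower one in every cohort, with differences of -0.34, -0.43 and -0.55. The difference was -0.44 ± 0.21 (log2, SE; limma adjusted p = 0.175). Fitted with the cohort number as a block, it was -0.44 ± 0.12, and its adjusted p was 0.0431, still under 2-fold. The second probe set (1452010_at) was 8.55, 9.17 and 9.31 against 9.33, 10.04 and 10.07, a difference of -0.81 ± 0.26 (adjusted p = 0.0646; 0.00553 with the block). The dim probe set (1444368_at) differed by -0.09 (adjusted p = 0.718).

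**Figure D2:**
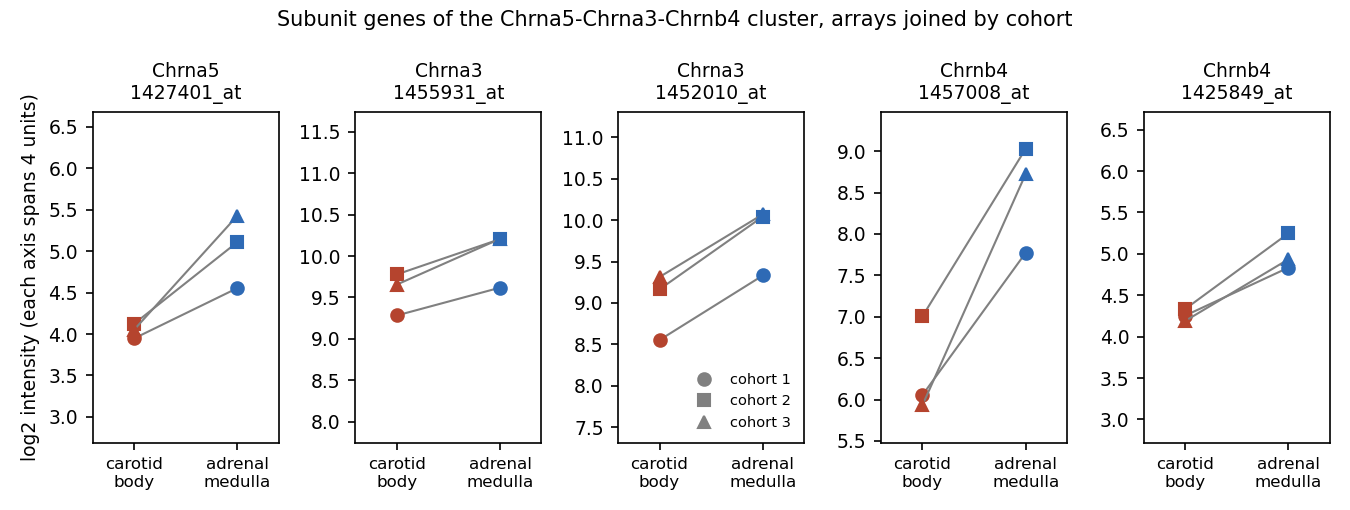
Log2 intensity (vertical axes, each spanning 4 units) of the bright or separating probe sets of Chrna5, Chrna3 and Chrnb4 in carotid body (red, left) and adrenal medulla (blue, right), with lines joining the arrays of a cohort. Every line shown goes up toward adrenal medulla, and the steepest are those of Chrnb4 probe set 1457008_at, where the cohort differences are -1.72, -2.02 and -2.79. Dimmer probe sets are shown only where their values separated the tissues, so the shared direction is partly fixed by that choice. The probe sets left out are mixed. Cohort differences are 0.09, 0.12 and -0.48 for Chrna3 probe set 1444368_at, and -0.25, 0.04 and -0.09 for Chrna5 probe set 1442035_at.

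The sizes of the 3 neighbours were compared on their brightest probe sets, and their order depends on that choice: Chrna3 probe set 1452010_at (-0.81) and Chrnb4 probe set 1425849_at (-0.75) differed by similar amounts to Chrna5 (-0.99). That Chrnb4 probe set, at 4.19 to 4.33 in carotid body, and Chrna5 were dim there, so their differences are compressed and the similar amounts do not show equal changes. The log2 difference Chrna3 minus Chrnb4 within an array was 3.24 ± 0.48 in carotid body, against 1.5 ± 0.34 in adrenal medulla (mean ± SD, n = 3), and the tissues did not overlap. The shift between tissues was 1.74 (two-sided exact permutation p = 0.1, the smallest possible; 0.12 adjusted over 6 contrasts). For Chrna3 minus Chrna5 the values were 5.53 ± 0.17 and 4.98 ± 0.17, a shift of 0.55 (exact permutation p = 0.1; 0.12 adjusted), with Chrna5 in carotid body at the dim end of the scale, where differences are compressed. Only the shift between tissues can be read from these contrasts, since the level of each probe set depends on its own sequence.

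Chrnb2, the beta2 subunit of many brain receptors, was 4.86, 5.77 and 5.95 in carotid body, against 6.10, 7.0 and 6.56 in adrenal medulla on its brightest probe set (1436428_at). No values overlapped, and in both tissues the array of cohort 1 was the lowest. The difference was -1.03 ± 0.32 (log2, SE), 2.04-fold, and missed the threshold (limma adjusted p = 0.0572). In the fit that blocks on cohort it was -1.03 ± 0.17 and was called (adjusted p = 0.00799), and 7 of 16 alternatives in all called it. Among these were the omission of the carotid body array of cohort 3 (-1.24) and of the adrenal medulla array of cohort 1 (-1.26). The second probe set (1420744_at) separated the tissues by -0.43 (adjusted p = 0.0942), and the third (1441837_at), the dimmest, differed by 0.08 (adjusted p = 0.806). The mean of all 3 differed by -0.46. Chrnb2 minus Chrnb4 within an array was -0.80 ± 0.71 in carotid body and -1.96 ± 0.25 in adrenal medulla (mean ± SD, n = 3), a shift of 1.15 (exact permutation p = 0.1; 0.12 adjusted). The carotid body array of cohort 3 stood apart, at 0.02 against -1.19 and -1.24, and without it the shift was 0.74.

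Chrna7, which forms the alpha7 receptor on its own, was the 1 of the 5 member subunit genes with a higher mean in carotid body on its brightest probe set. Probe set 1440681_at was 12.51, 12.74 and 12.76 in carotid body, against 11.47, 11.83 and 12.13 in adrenal medulla. All carotid body arrays lay above all adrenal medulla arrays. The difference was 0.86 ± 0.18 (log2, SE; limma adjusted p = 0.012), 1.82-fold and not called; without the adrenal medulla array of cohort 3 it was 1.02 and passed, and without both arrays of cohort 2 the adjusted p was 0.145. Probe set 1450299_at was 6.21, 6.10 and 6.25 in carotid body, against 5.80, 6.06 and 6.13 in adrenal medulla. Its values overlapped and it differed by 0.19 (95% confidence interval -0.11 to 0.49; adjusted p = 0.341). The mean of both differed by 0.53. The probe sets thus disagreed, and the Chrna7 difference rests on the first of them, which stood at the 99.1 percentile of the array in mean level; where it lies on the transcript was not analysed here. The within-array difference Chrna3 minus Chrna7 was -3.10 ± 0.13 in carotid body and -1.80 ± 0.15 in adrenal medulla (mean ± SD, n = 3), a shift of -1.30 (exact permutation p = 0.1; 0.12 adjusted). For Chat minus Slc18a3, the sixth contrast, the shift was 0.19 with overlapping tissues (exact permutation p = 0.3).

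**Figure D3:**
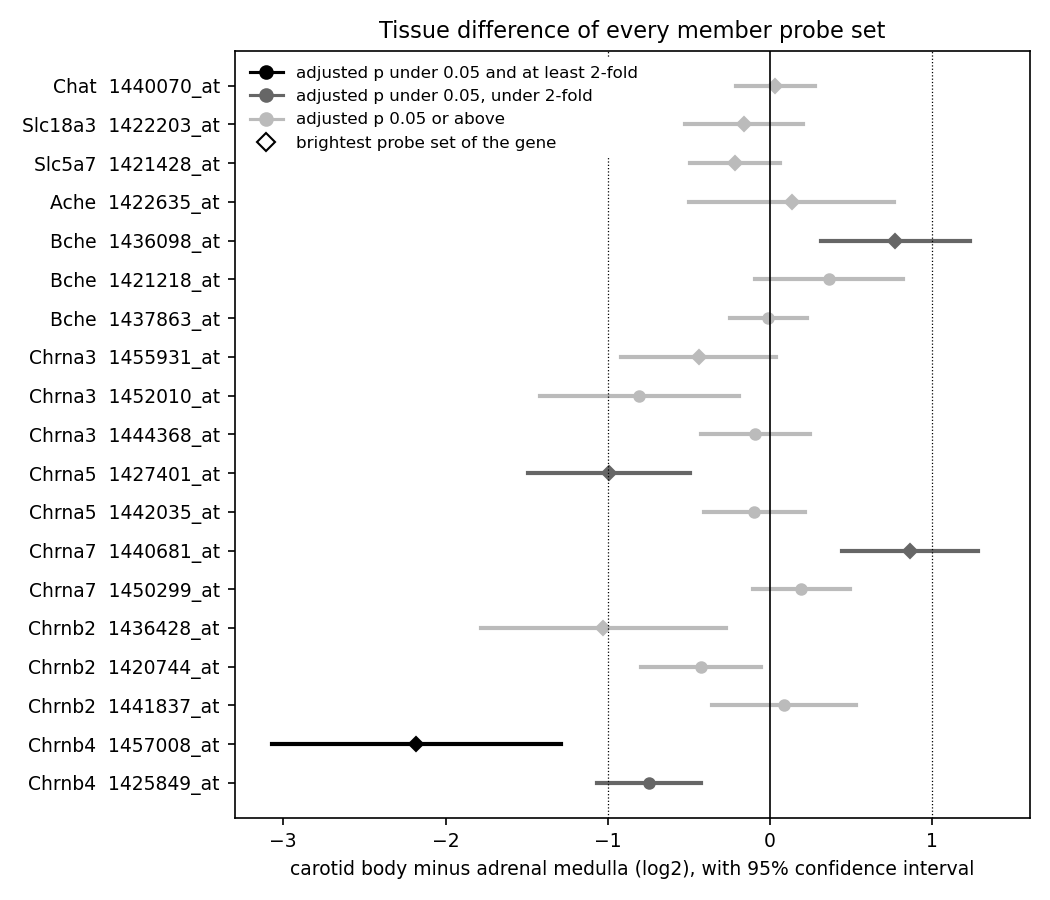
Carotid body minus adrenal medulla difference in log2 intensity (horizontal axis) of all 19 probe sets, with 95% confidence intervals from limma; dotted lines mark 2-fold, diamonds the brightest probe set of each gene. Chrnb4 probe set 1457008_at, at -2.18, is the only one in black, past both thresholds; the other probe sets lie between -1.03 and 0.86.

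Cohort differences were shared by the tissues for several of these genes. Taking the cohort into account lowered the standard error of Ache from 0.27 to 0.14, of Chrna3 probe set 1452010_at from 0.26 to 0.12, of Chrnb2 from 0.32 to 0.17 and of Chrnb4 from 0.38 to 0.22. It left that of Chat near its value, 0.10 without and 0.12 with the block. The carotid body and adrenal medulla arrays of cohort 1 were the lowest of their tissue for Ache, Bche, Chrna3, Chrna5, Chrna7 probe set 1440681_at and Chrnb2; for Chrnb4 the lowest carotid body array was that of cohort 3. This pattern was not particular to the members. It also held for the markers Th, Ddc, Phox2a, Slc18a1, Slc18a2, Cyb561 and Syt1, but not for Dbh, Chga, Chgb or Scg2. Over all probe sets, deviations from tissue means correlated at only 0.22, 0.08 and 0.16 within cohorts 1, 2 and 3.

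The 7 brighter genes were also set against the chromaffin and glomus cell markers, a comparison chosen after the values were seen. The mean log2 level of the 11 measured markers, Th and Chga among them, was 11.15 to 11.53 in carotid body, against 12.31 to 12.80 in adrenal medulla, a difference of -1.26. The markers did not move together: 9 of the 11 had lower means in carotid body, 7 of them called, while Ddc, the decarboxylase of catecholamine synthesis, was at 12.97 to 13.58 there, against 12.25 to 12.69 in adrenal medulla (difference 0.81, adjusted p = 0.0207), and Syt1 differed by 0.55 (adjusted p = 0.139). Relative to that mean in the same array, Chrnb4 differed by -0.92, with overlapping values: -5.10, -4.53 and -5.39 against -4.54, -3.77 and -3.94. Chrna3 turned the other way, at -1.87, -1.76 and -1.67 in carotid body against -2.69, -2.59 and -2.46 in adrenal medulla, a shift of 0.82 with no overlap. Chrnb2 and Chrna5 shifted by 0.23 and 0.26 with overlapping values. Ache, Bche and Chrna7 shifted by 1.39, 2.03 and 2.12 toward carotid body, with no overlap. The marker difference of -1.26 is taken from every gene alike, which moves each of them toward carotid body by that amount. Most of the Ache shift is this common step, since its own difference was 0.13 (limma adjusted p = 0.782). The share of all genes without overlap on this scale was not computed. The two-sided exact permutation p was 0.1, the smallest possible, for Ache, Bche, Chrna3 and Chrna7, 0.2 for Chrnb4, 0.3 for Chrna5 and 0.6 for Chrnb2, and at least 0.175 for all 7 after adjustment. On this scale the sign of Chrna3 was opposite to that on the array scale, and Chrna5 and Chrnb2 had no direction beyond their spread. Which cells of either organ the RNA came from was not tested.

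Genes of other parts of cholinergic signalling were taken from 7 lists, 74 measured genes of 82. Of these, carotid body was higher for 7, adrenal medulla for 5, and 62 were not called, 16.2% called against 12.0% of all genes, and their median difference was -0.01. Of the other 10 measured nicotinic subunit genes, 0 were called, by the rule or at an adjusted p under 0.05 alone, and their differences ran from -0.22 for Chrna4 to 0.08 for Chrna2. All except Chrnd had mean levels under the median of all probe sets, from the 22.2 percentile for Chrnb1 to 39.1 for Chrng. Differences are compressed there, and with no detection calls such levels cannot be told from those of genes that are not expressed. The brightest of the 10 were the muscle subunits Chrnd, at 5.66 ± 0.16 in carotid body, against 5.73 ± 0.01 in adrenal medulla (mean ± SD, n = 3), and Chrng, at 4.61 and 4.54 in that order. Skeletal muscle markers, the cell type of those subunits, had 0 of 16 called toward carotid body and 1 toward adrenal medulla. Muscarinic receptors, the G protein-coupled receptors for acetylcholine, had 0 of 3 called. Chrm1 was 5.95, 7.21 and 6.66 in carotid body, against 6.61, 6.80 and 6.99 in adrenal medulla, a difference of -0.20 that turned to 0.13 without the carotid body array of cohort 1. Chrm4 differed by 0.13 (adjusted p = 0.465). Its mean level was at the 18.6 percentile and that of Chrm3 at 13.5, where the same limit holds.

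Genes that assemble or modulate nicotinic receptors held the extreme of the 7 lists in each direction, Tmem35a and Ly6h. Of 18 measured, 2 were called in each direction and 14 not called, with a median of -0.10. Tmem35a encodes the chaperone NACHO, which promotes the assembly of neuronal nicotinic receptors. It was 7.5, 7.35 and 7.60 in carotid body, against 11.18, 10.58 and 10.16 in adrenal medulla, with no overlap and a gap of more than 2 log2 units between the nearest arrays. It was lower in carotid body by -3.16 ± 0.24 (log2, SE; limma adjusted p = 0.000185), 8.91-fold. The adrenal medulla arrays also held adrenal cortex markers, at a summed log2 level of 15.9 to 16.3, and the part of cortex RNA in the Tmem35a difference was not tested. Ly6h encodes a membrane-anchored protein of the Ly6 family that lowers the surface level of alpha7 receptors. It was 10.72, 10.90 and 10.93 in carotid body, against 4.82, 4.89 and 4.79 in adrenal medulla. The values were tight in both tissues, with a difference of 6.01 ± 0.11 (adjusted p = 2.39e-06). The adrenal medulla values lay under the array median of 5.28, and with no detection calls the size of the fold is not given. Lypd6, of the same family, was lower in carotid body by -1.03 (adjusted p = 0.00998), a call lost under 7 of 16 alternatives, among them each omission of an array of cohort 2 or 3 (-0.99 to -0.88). Lrp4, an agrin receptor, was higher in carotid body by 1.19 (adjusted p = 0.0451), a call lost under 9 of 16 alternatives, among them each omission of a single array other than the carotid body array of cohort 1 (0.78 to 1.24, adjusted p up to 0.141). Tmem35a and Ly6h kept their calls under the 16 limma alternatives.

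**Figure D4:**
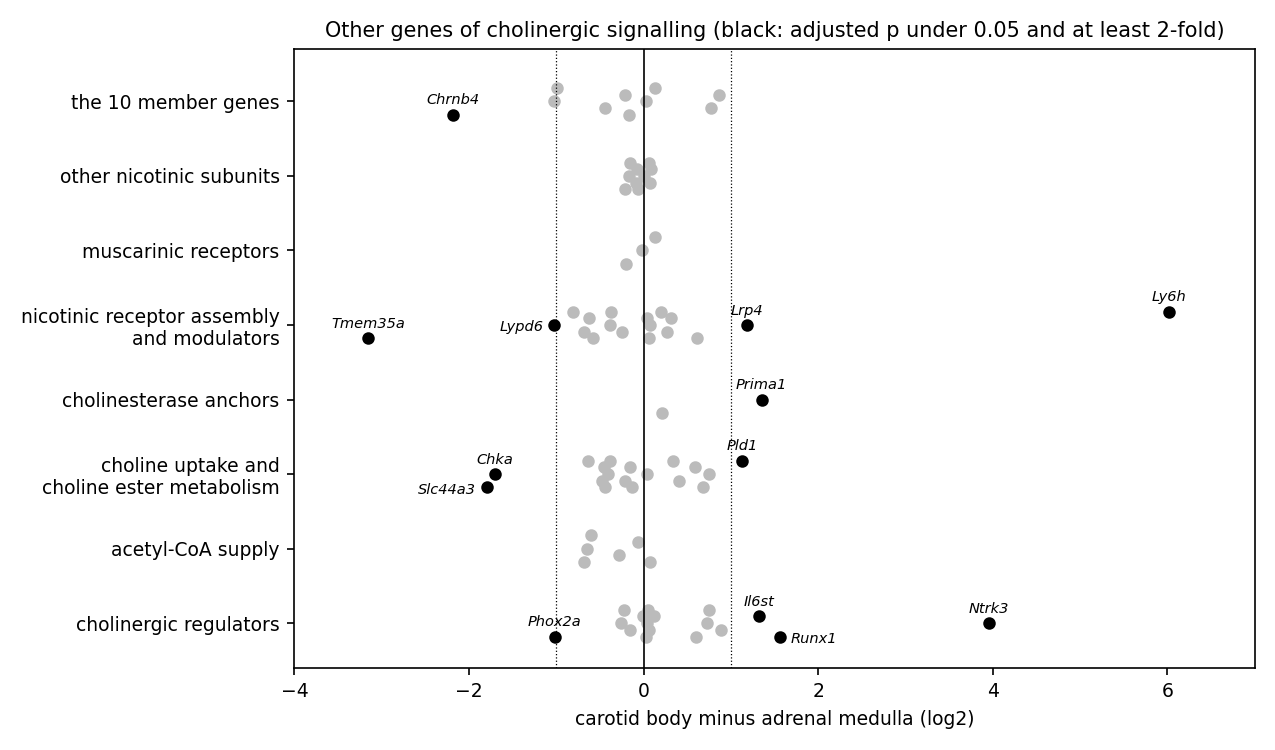
Carotid body minus adrenal medulla difference in log2 intensity (horizontal axis) of the 10 member genes and of the genes of 7 lists fixed for cholinergic signalling; each point is the brightest probe set of a gene, and dotted lines mark 2-fold. Named black points passed the test, from Tmem35a at -3.16 to Ly6h at 6.01, while the other nicotinic subunits and the muscarinic receptors lie between -0.22 and 0.13. All of these except Chrnd and Chrm1 had mean levels under the median of all probe sets, where differences are compressed.

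Of the genes that anchor acetylcholinesterase, Prima1, which holds it in the membranes of neurons, was higher in carotid body. It was 6.95, 7.59 and 7.87 there and 5.53, 6.48 and 6.35 in adrenal medulla, with no overlap. The difference was 1.35 ± 0.31 (log2, SE; limma adjusted p = 0.0171); its other probe set gave 0.26 and the mean of both 0.81, and the adjusted p was 0.0642 without the carotid body array of cohort 2 and 0.115 without that cohort. Colq, the collagen tail of the muscle enzyme, differed by 0.21 (adjusted p = 0.328). Ache itself, as given above, did not pass the test.

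Genes of choline uptake and choline ester metabolism had 1 of 18 called toward carotid body and 2 toward adrenal medulla. Chka, the kinase that commits choline to phosphatidylcholine, was 6.28, 6.46 and 6.64 in carotid body, against 8.33, 8.04 and 8.12 in adrenal medulla. The tissues were well apart, by -1.70 ± 0.14 (log2, SE; limma adjusted p = 0.000236), although its 3 probe sets ranged from -1.70 to 0.30 and their mean, at -0.53, was not called. Slc44a3, of the choline transporter-like family, was lower by -1.80 (adjusted p = 0.00403; 0.066 without cohort 2). Its carotid body array of cohort 1 was the highest of that tissue, at 4.97 against 4.01 and 4.17. Pld1, a phospholipase that frees choline from phosphatidylcholine, was higher in carotid body by 1.13 (adjusted p = 0.00296), and by 0.99 without the adrenal medulla array of cohort 1. The 3 probe sets of Pld1 ranged from -0.03 to 1.23, 2 of them called, and their mean differed by 0.78, under 2-fold. Slc44a1, a choline transporter, differed by 0.75 (adjusted p = 0.00301), under 2-fold. Of 6 genes that supply acetyl-CoA 0 were called, with a median of -0.44. Acly, ATP citrate lyase, was 12.36, 11.44 and 11.27 in carotid body, against 12.28 to 12.46 in adrenal medulla, so that the carotid body array of cohort 1 stood with the adrenal medulla. That array also had the highest adrenal cortex marker level and the highest Gapdh 3' excess of its tissue. The part of either in the Acly values was not tested. The Acly difference was -0.68 (limma adjusted p = 0.11), and without the carotid body array of cohort 1 it was -1.02 (adjusted p = 0.00256). The 6 probe sets of Acly ranged from -2.31 to 0.29, and 2 of them were called. Their mean differed by -0.71 (adjusted p = 0.00481), under 2-fold. Cs, citrate synthase, differed by -0.06 (adjusted p = 0.786), and by -0.42 over the mean of its 3 probe sets (adjusted p = 0.0176), under 2-fold.

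Among 17 measured regulators linked to cholinergic or autonomic neurons, 3 were called toward carotid body and 1 toward adrenal medulla. Ntrk3, the receptor for neurotrophin-3, was 8.66, 9.52 and 9.54 in carotid body, against 5.32, 5.16 and 5.37 in adrenal medulla, a difference of 3.96 ± 0.24 (log2, SE; limma adjusted p = 6.05e-05); 5 of its 8 probe sets were called, and the mean over all 8 differed by 1.56. Runx1, a transcription factor of sensory neurons and blood cells, was higher by 1.56 (adjusted p = 0.00145), and by 0.59 over the mean of its 6 probe sets. Il6st, the shared receptor of the cytokines that turn sympathetic neurons cholinergic, was higher by 1.32 (adjusted p = 0.00336), but by 0.48 over the mean of its 4 probe sets; without cohort 2 its adjusted p was 0.073. Phox2a, a homeodomain factor of autonomic neurons, chromaffin cells and glomus cells, was lower by -1.02 (adjusted p = 0.0154), and 5 of 16 alternatives did not call it, among them omission of the carotid body array of cohort 1 (-0.82) and of the adrenal medulla arrays of cohort 2 (-0.89) or 3 (-0.96). Rest, a repressor of neuronal genes, differed by -0.01 and Isl1 by 0.02. In the same pools, 14 of 14 fibroblast, 13 of 14 smooth muscle and 7 of 13 glial markers were called toward carotid body, and their part in these differences was not tested.

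The genes whose values over the 6 arrays were most like those of Chrnb4 probe set 1457008_at were Omg, Rap1gap2 and Tmem59l. Likeness was the root-mean-square difference of log2 values after each gene's mean was removed, over 7256 brighter genes. It was 0.201 for Omg, an oligodendrocyte and neuron surface protein, 0.286 for Rap1gap2, a regulator of the small G protein Rap1, and 0.324 for Tmem59l. Their tissue differences were -2.35, -2.22 and -1.97. Since Chrnb4 is split mainly by tissue, genes with a like tissue difference rank high by construction.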

How the data were processed

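The deposited table holds 1 log2 intensity per probe set and array. The submitters' processing notes name Affymetrix Expression Console as the authors' software; its version and algorithm were not given in the sources used here. The log2 scale was read from the values, 2.70 to 14.97. No further normalization was applied. Of 45101 probe sets, 64 controls were left out; 34945 carried 1 symbol in the 2016 annotation, 932 several and 9160 none, and 34741 matched RefSeq (GRCm38.p6). The probe set with the highest mean over the 6 arrays stood for its gene. Tissues were compared with limma 3.58.1 in R 4.3.3 (lmFit, eBayes, no block), two-sided, with Benjamini-Hochberg adjustment over 45037 probe sets; the script was tested on simulated data. The number of arrays limits the precision.

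Named genes were all members, called list genes (up to 6 a list, or the 2 brightest) and the 3 genes most like a called member among those at or above the 75th percentile; others were chosen after their values were seen. Members and lists were chosen with earlier results of these data known. Cohort pairing rests on the series' statement; deviations from tissue means correlated at 0.22, 0.08 and 0.16 for the same cohort and -0.21 to 0.10 otherwise. The spread between arrays holds animal and technical variation. Alternatives were a cohort block, quantile normalization, median centring, removal of dim probe sets, trend with robust variances, array weights, probe set means, omission of arrays or cohorts, and the marker scale, which was added later.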

Additional observations from a re-analysis of the deposited data

How the results depend on the processing

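Member genes called higher in adrenal medulla numbered 1, and 2 with the cohort as a replicate block, after quantile normalization, with dim probe sets removed and with robust variances that follow an intensity trend, and 3 with arrays centred on their medians and with array weights; omission of arrays or cohorts gave 1 to 3. The added genes were Chrnb2 and Chrna5. Those higher in carotid body numbered 0, and 0 to 1 under omissions, the 1 being Chrna7. The block changed no other member's call. Centring shifted the median over all probe sets by -0.12 (log2) and the share of called probe sets higher in carotid body from 56.5% to 46.0%. List genes called, 7 and 5, were 3 and 3 with probe set means, and 4 to 7 and 2 to 5 under omissions. All probe sets called, 2680 and 2064, were 1626 to 3025 and 952 to 2499 under omissions, lowest without cohort 2. Genes that were not called changed sign: Chat was -0.044 and Chrng -0.054 after quantile normalization, and -0.082 and -0.050 with centred arrays. Under omissions, the differences ran from -0.00313 to 0.070 for Chat, -0.13 to 0.38 for Ache, -0.12 to 0.033 for Chrnd, -0.016 to 0.14 for Chrng, -0.50 to 0.13 for Chrm1, -0.18 to 0.055 for Cs and, on the marker scale, -0.025 to 0.47 for Chrnb2. The cause was not tested. With dim probe sets removed, Chat, Slc18a3, Slc5a7, Chrna5, Chrng and Chrm4 had no value. Dim probe sets limit what all of these can show.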
